A study of Mus musculus with 6 samples.

Results

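The 35 redox defence and glutathione genes described here were taken by symbol from a table of 52459 genes, and all 35 were found, 1 row each, in all 6 libraries. The libraries hold RNA of mouse megakaryocytic-erythroid progenitors (MEPs), the marrow cells from which platelet-forming megakaryocytes and red cells arise. In 3 libraries the mice were wild type (WT) and in 3 they were Tmprss6-/- (KO), which lack a liver protease whose loss raises the hormone hepcidin and leaves the body short of iron. Each library is a pool of sorted cells from 3 mice, so the spread between libraries is a spread between pools. The labels used here give no strain or age, and the deletion is described only as Tmprss6-/-, with no cell type named, so that an effect on MEPs themselves and one of the iron-poor body cannot be told apart. The comparison asks how the defence against oxidants is set in MEPs of iron-deficient mice.

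Oxidants are removed in cells by linked systems. Superoxide dismutases turn superoxide into hydrogen peroxide, which catalase, peroxiredoxins and glutathione peroxidases then break down. Peroxiredoxins are recharged by thioredoxin, and glutathione peroxidases by glutathione, and both draw their electrons from NADPH. The transcription factor NRF2 (Nfe2l2), held back by KEAP1, switches on many of these genes through a short promoter element. Red cells carry oxygen, heme and iron, and are known for large amounts of peroxiredoxin 2, catalase and glutathione peroxidase 1.

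The core of the element that NRF2 binds with small MAF proteins, TGACNNNGC, was looked for on both strands of RefSeq promoter windows (GRCm38.p6, 250 bases before to 50 after each start), because it is the sequence feature that could tie these genes together. Windows were found for 32 of the 35 genes. Of these, 9 held at least 1 match (28.1%), against 14% of all 27025 genes with a window. Some genes have several windows, and the 32 have more of them on average; counted by window, 9 of 48 held a match (18.8%), against 12.4% of all 32851. The match in Srxn1 and that in Pgd lie after the start and are not printed. The other 7 stretches are shown with 10 bases on either side, on the strand of the gene, with the match in capitals; where the capitals begin with GC, the element lies on the other strand.
Nfe2l2: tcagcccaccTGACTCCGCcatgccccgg
Prdx1: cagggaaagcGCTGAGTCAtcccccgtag
Txnrd1: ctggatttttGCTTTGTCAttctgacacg
Gclm: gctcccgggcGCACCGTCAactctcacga
G6pdx: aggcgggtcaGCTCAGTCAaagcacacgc
Mgst1: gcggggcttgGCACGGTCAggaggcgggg
Sod1: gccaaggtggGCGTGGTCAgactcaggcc

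They lie at chr2:75704885-75704913 (Nfe2l2, minus strand), chr4:116685456-116685484 (Prdx1, plus), chr10:82859104-82859132 (Txnrd1, plus), chr3:122245413-122245441 (Gclm, plus), chrX:74428919-74428947 (G6pdx, minus), chr6:138140461-138140489 (Mgst1, plus) and chr16:90220696-90220724 (Sod1, plus). Those of Txnrd1, G6pdx and Mgst1 fall inside the gene's span in the deposited table, downstream of another annotated start, and the other 4 lie upstream of it. The match of Prdx1 also contains the AP-1 element TGACTCA, read on the other strand, which the other 6 do not. A match is a description of letters, not a bound site. A window without one, such as that of Nqo1, says only that these letters are not in it.

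Total counts ran from 13402209 to 22986837 per library, and the floor of 3 counts was 0.138 to 0.220 CPM (the counts of a gene over the library's total, on a common scale, with library sizes adjusted by TMM). Each library had counts for all 35 genes, with at least 10 counts for each gene except in KO replicate 3, where 34 reached it. KO replicate 2 stands apart: the summed level of 11 eosinophil, basophil and mast cell markers was 8499 CPM there against 49.3 to 809 CPM in the other 5 libraries, that of 11 neutrophil markers 3520 against 85.8 to 397 CPM, that of 11 macrophage markers 2767 against 49.2 to 257 CPM and that of 10 late erythroblast and globin genes 5440 against 218 to 491 CPM. All members of these 4 lists were highest in that library. The late erythroblast and globin sum was also higher in KO replicates 1 and 3, at 491 CPM each, than in WT replicates 1 to 3, at 342, 327 and 218 CPM. Of these 10 genes, 8 were higher in KO in 3 of 3 pairs (background 11.6%). In the eosinophil, neutrophil and macrophage lists 1, 0 and 0 genes were. Lymphoid markers, 9 genes, were high in KO replicates 2 and 3, at 1565 and 1259 CPM, where the remaining 4 lay between 253 and 534 CPM, and the immunoglobulin gene Igkc was at 333 and 385 CPM in these 2 and at most 56.3 CPM in the others. Defining MEP genes, 11 with Kit, Gata1 and Klf1 among them, summed to 2568 CPM in it and to 2401 to 4879 CPM in the others, and none was at 0 in any library. Tmprss6 itself had 0 to 5 counts per library in either genotype and so checks no label. Replicate 3 of both genotypes had 351 (WT) and 175 (KO) counts of the female-specific Xist and at most 1 of the Y-linked Ddx3y, while the other 4 libraries had 872 or more of Ddx3y and at most 1 of Xist. In such bulk libraries, fewer cells of a type and less RNA per cell cannot be told apart.

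The 35 genes together were abundant in MEPs. They took 1.02% to 1.52% of all counts, and Gpx1, which reduces hydrogen peroxide with glutathione, alone made up 19.9% to 32.6% of their sum. Per kilobase of principal transcript and on the CPM scale, the mean WT level was 3437 for Gpx1, 719.8 for Prdx6, 618 for Prdx2, 611 for Gpx4 and 544 for Prdx1. The level per kilobase of these last 4 lay close together beside their spread over libraries. Thioredoxin (Txn1) at 396, Gstp1 at 311 and Gsto1 at 299 followed. The superoxide dismutase Sod1 (119) and catalase (117) stood lower on the same scale. At the low end were Srxn1 at 5.8, Mgst1 at 3.8 and Mgst2 at 3.35 CPM per kilobase. Counts of Prdx2, Prdx6, Txn1 and Gstp1, for which the table also lists close copies (among them Prdx6b and Gstp2), are uncertain as far as the authors' counting split shared reads.

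**Figure D1:**
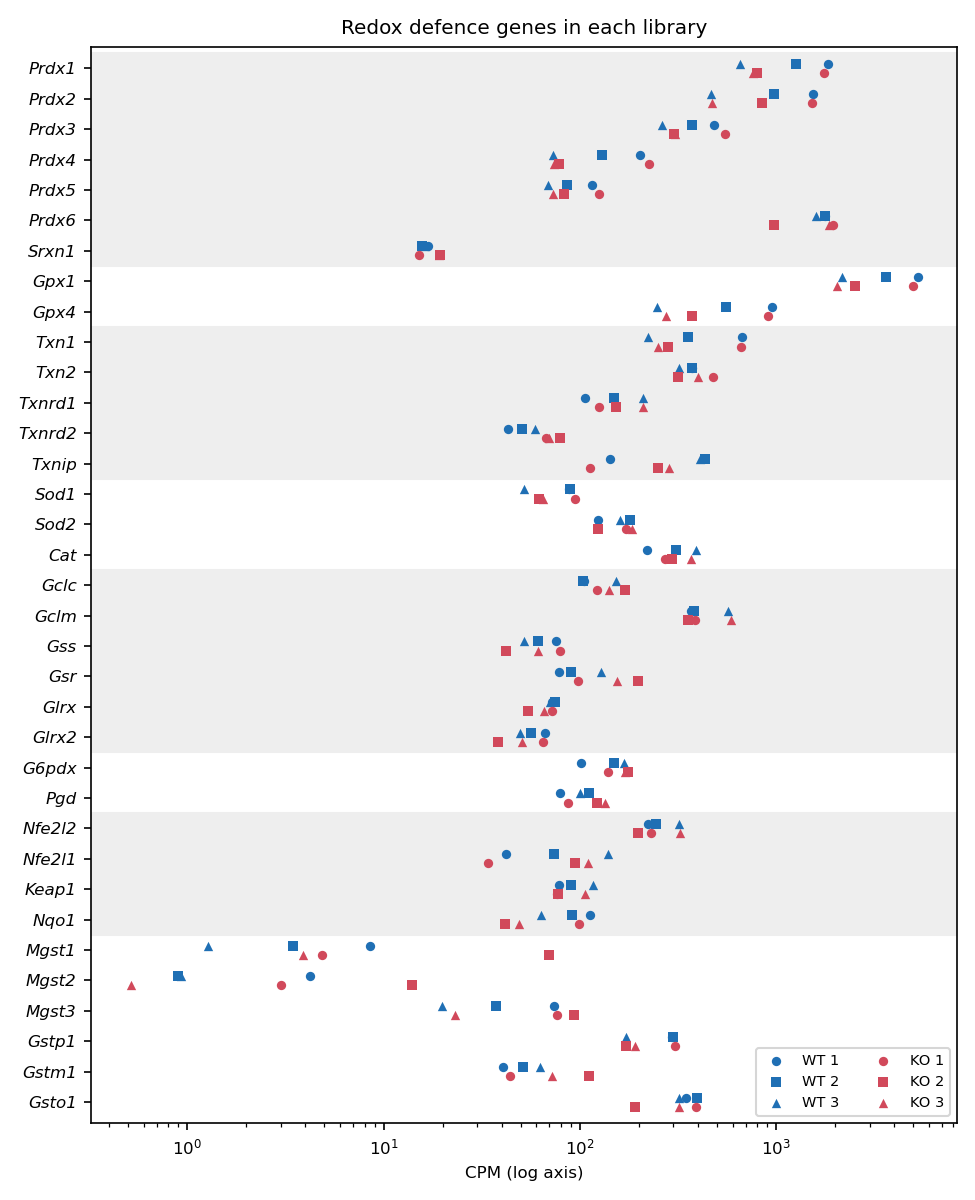
CPM of each of the 35 genes (log axis) in the 3 WT libraries (blue) and the 3 KO libraries (red), with the replicate number given by the marker's shape and the genes' roles set off by shading. Gpx1 lies furthest right, Mgst1 and Mgst2 furthest left, and the blue and red markers overlap for every gene except Txnrd2.

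None of the 35 genes differed between the genotypes past the threshold of edgeR's quasi-likelihood test. The count was 0 of 35 at an adjusted p under 0.05 (background 0%, 0 of 13453 genes tested), and also 0 of 35 at an unadjusted p under 0.05, where the background was 1.74%. With the replicate number added as a block, edgeR called 0 (background 0%), with 4 at an unadjusted p under 0.05 (background 3.54%). DESeq2 called 0 (background 0.0446%), with 0 at an unadjusted p under 0.05 (2.57%). It gave no p for Mgst1 (log2 fold change 2.54, SE 1.03), so these counts leave that gene out. Adding the block to DESeq2 also gave 0 (0.171%), with 5 at that unadjusted level (4.46%). Limma voom with quality weights called 0 (background 0%), with 3 at an unadjusted p under 0.05 (5.46%). Of the 35, 17 had a higher and 18 a lower estimate in KO, with a median log2 fold change (KO over WT) of -0.049, beside 49.3% higher and a median of -0.0048 over all genes tested.

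The precision of these estimates differed among the genes. The SE of the log2 fold change ran from 0.25 to 1.20 with a median of 0.34. For 19 genes the 95% interval lay within a 2-fold difference in either direction. The other 16 intervals reached a doubling, a halving or both, and among them are the abundant Prdx1, Prdx2, Gpx1, Gpx4 and Txn1. Most of these were narrower with the replicate number as a block, where 29 intervals lay within a 2-fold difference and the median SE was 0.19. Prdx2 then had an interval of -0.46 to 0.32, Gpx1 one of -0.73 to 0.28 and Gpx4 one of -0.63 to 0.29. The 6 that still reached a 2-fold difference were Gsr, Nqo1, Mgst1, Mgst2, Mgst3 and Gstm1. With the block 4 intervals left out 0, before any adjustment: those of Txnrd2 (0.11 to 0.91), Txnip (-0.92 to -0.19), Gsr (0.060 to 1.09) and Nqo1 (-1.09 to -0.026).

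**Figure D2:**
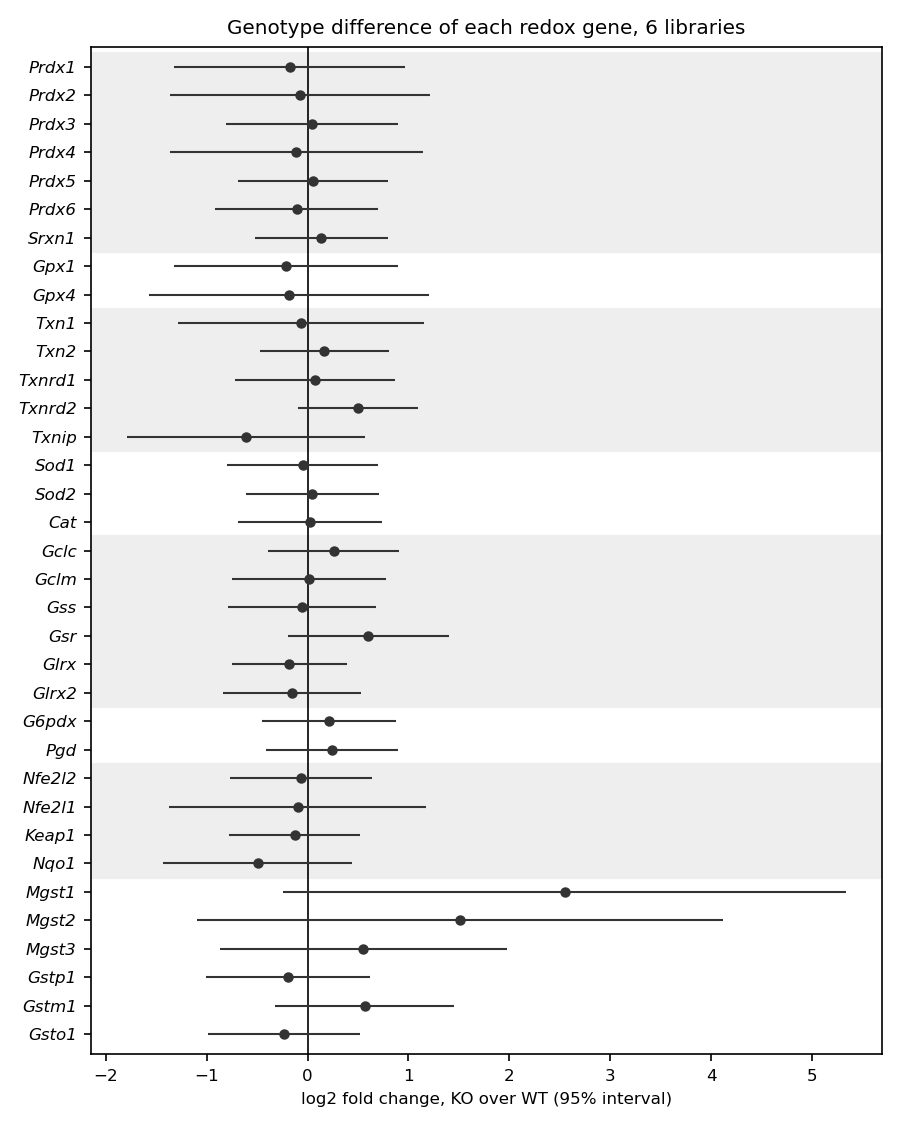
Log2 fold change of KO over WT for each of the 35 genes with its 95% interval, from edgeR on all 6 libraries without the block. All 35 intervals include 0. Those of Mgst1 and Mgst2 are the widest, and those of Txnrd2 and Gsr reach least far below 0.

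Among the peroxide-removing enzymes the levels of KO and WT overlapped for every gene. Gpx1 (ENSMUSG00000063856, chromosome 9, 108338903 to 108340343) was at 5264, 3616 and 2171 CPM in WT replicates 1 to 3 and 4959, 2530 and 2051 CPM in KO replicates 1 to 3. Replicate 1 was high and replicate 3 low in both genotypes, and the KO library was the lower in 3 of 3 pairs (log2 fold change -0.21, SE 0.48, 95% interval -1.32 to 0.90, edgeR adjusted p = 1.00; a pair means libraries of the same number). Gpx4, which repairs oxidised lipids in membranes and is the enzyme that holds off ferroptosis, was at 955, 556 and 247 CPM in the WT and 905, 373 and 273 CPM in the KO libraries. Prdx2, the main peroxiredoxin of red cells, was at 1546, 979 and 465 CPM in the WT and 1520, 846 and 473 CPM in the KO libraries, so that the WT and KO libraries numbered 1 and those numbered 3 were close to each other while replicates differed over 3-fold within a genotype. Prdx1, another cytosolic peroxiredoxin, was likewise highest in replicate 1 of both genotypes, at 1836, 1257 and 652 CPM in the WT and 1752, 798 and 764 CPM in the KO libraries.

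Prdx6, which uses glutathione rather than thioredoxin, was steady in 5 libraries and low in KO replicate 2, at 1783, 1767 and 1605 CPM in the WT and 1941, 979 and 1866 CPM in the KO libraries. Prdx3, the peroxiredoxin of mitochondria, was at 485, 374 and 262 CPM in the WT and 549.8, 302 and 305 CPM in the KO libraries. Prdx4, that of the endoplasmic reticulum, was at 203, 129.5 and 73.1 CPM in the WT and 224, 78.4 and 73.5 CPM in the KO libraries, and Prdx5 at 115, 85.9 and 69.2 CPM in the WT and 125, 83.1 and 72.9 CPM in the KO libraries. In each of Prdx3, Prdx4, Prdx5 and Prdx6 the KO library was the higher in pairs 1 and 3 and the lower in pair 2. Prdx5 overlaps the abundant Trmt112 by 409 bases. Srxn1, which restores over-oxidised peroxiredoxins and is a classic NRF2 target, was scarce and even, at 16.9, 15.8 and 16.2 CPM in the WT and 15.2, 19.4 and 19.2 CPM in the KO libraries (log2 fold change 0.14, SE 0.29, 95% interval -0.52 to 0.80, edgeR adjusted p = 1.00).

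In the thioredoxin system, Txnrd2 had the only levels among the 35 that did not overlap between the genotypes. This mitochondrial reductase, a selenoprotein that recharges thioredoxin 2 (ENSMUSG00000075704, chromosome 16, 18426384 to 18479073), was at 42.9, 50.8 and 59.2 CPM in WT replicates 1 to 3 and 67.1, 79.3 and 69.7 CPM in KO replicates 1 to 3. Every KO library lay above every WT library (WT mean 51 ± 8.16 CPM, KO mean 72 ± 6.43 CPM, SD, n = 3; log2 fold change 0.50, SE 0.26, 95% interval -0.095 to 1.09, edgeR adjusted p = 1.00), and the adjusted p ran from 0.16 to 1.00 over the alternatives. Such a separation upward was seen in 2.27% of all genes tested, and in either direction in 4.03%, so 1 of 35 is near the background. These libraries do not mark strand, so for any of the 35 genes reads of an overlapping gene on the opposite strand cannot be told apart from its own.

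The partners of Txnrd2 did not separate. Txn2, the mitochondrial thioredoxin, was at 371, 372 and 320.1 CPM in the WT and 479, 315 and 399 CPM in the KO libraries, with the KO library higher in pairs 1 and 3. Txn1, the cytosolic thioredoxin, was at 671, 355 and 223 CPM in the WT and 661, 282 and 250.1 CPM in the KO libraries, nearly equal within pair 1. Txnrd1, its reductase and a gene with an NRF2-type element above, was at 106, 150.1 and 209.6 CPM in the WT and 126, 153 and 211 CPM in the KO libraries (log2 fold change 0.074, SE 0.34, 95% interval -0.72 to 0.87, edgeR adjusted p = 1.00), with differences of 0.25, 0.03 and 0.01 log2 units within pairs 1 to 3.

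Txnip (ENSMUSG00000038393, chromosome 3, 96557957 to 96561883), which binds and blocks thioredoxin and is known to rise with glucose, had the lowest fold change of the 35. It was at 143, 434 and 409.6 CPM in WT replicates 1 to 3 and 112, 250.1 and 285 CPM in KO replicates 1 to 3. Both replicate 1 libraries were low, and the groups overlapped, but the KO library was the lower in 3 of 3 pairs, by -0.35, -0.79 and -0.52 log2 units in pairs 1 to 3 (log2 fold change -0.61, SE 0.51, 95% interval -1.79 to 0.57, edgeR adjusted p = 1.00). Fitted in pairs 1 and 3 only with the block, its log2 fold change was -0.44 with an edgeR adjusted p of 0.067, the smallest of the 35 genes in that fit.

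Superoxide dismutases and catalase differed in direction from pair to pair. Sod1, the cytosolic copper-zinc enzyme, was at 88, 88.7 and 51.8 CPM in the WT and 94.4, 61.9 and 64.6 CPM in the KO libraries. Sod2, the mitochondrial manganese enzyme, was at 124, 179 and 159.9 CPM in the WT and 173, 123 and 184 CPM in the KO libraries (log2 fold change 0.049, SE 0.28, 95% interval -0.61 to 0.71, edgeR adjusted p = 1.00). Catalase (Cat), an enzyme that carries heme, was at 219.7, 309.6 and 390.3 CPM in the WT and 271, 294 and 367 CPM in the KO libraries. The KO library was higher in pair 1 for all 3 of these genes and lower in pair 2 for all 3.

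Glutathione is made by glutamate-cysteine ligase (Gclc and Gclm) and glutathione synthetase (Gss), and glutathione reductase (Gsr) restores it. Gsr (ENSMUSG00000031584, chromosome 8, 33652523 to 33698163) was at 78.5, 89.8 and 128 CPM in WT replicates 1 to 3 and 97.6, 198 and 154 CPM in KO replicates 1 to 3. The KO library was the higher in 3 of 3 pairs, by 0.31, 1.14 and 0.27 log2 units, and the groups overlapped (log2 fold change 0.60, SE 0.35, 95% interval -0.20 to 1.40, edgeR adjusted p = 1.00). Its highest value was in KO replicate 2, and without that library the log2 fold change was 0.35. Gclc, the catalytic subunit that sets the pace of synthesis, was at 106, 104 and 152 CPM in the WT and 123, 169 and 141 CPM in the KO libraries, and Gclm, its regulatory subunit, at 371, 380.1 and 569.7 CPM in the WT and 386, 356 and 588 CPM in the KO libraries. Gclm was close to equal within every pair, at 0.058, -0.094 and 0.047 log2 units. Gss was at 75.5, 61.3 and 52.1 CPM in the WT and 78.8, 42.1 and 61.2 CPM in the KO libraries; it lies across from Acss2, which overlaps it over 22544 bases and had more counts.

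Glutaredoxins pass electrons from glutathione to proteins. Glrx was at 72.4, 74.8 and 70.7 CPM in the WT and 72, 54.2 and 65.9 CPM in the KO libraries, with KO replicate 2 lowest of all 6 libraries. Glrx2, a mitochondrial glutaredoxin that can hold an iron-sulfur cluster, was at 66.7, 56.1 and 49.3 CPM in the WT and 65.1, 38.4 and 51 CPM in the KO libraries, again lowest in KO replicate 2.

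Both enzymes of the pentose phosphate pathway that make NADPH were higher in the KO library in 3 of 3 pairs. For each, the difference between the genotype means was smaller than the range of the libraries within either genotype. G6pdx, its first enzyme, was at 101, 149 and 168 CPM in the WT and 139, 176 and 169 CPM in the KO libraries (log2 fold change 0.21, SE 0.29, 95% interval -0.45 to 0.88, edgeR adjusted p = 1.00), with pair differences of 0.46, 0.24 and 0.016 log2 units. Pgd, the next NADPH-making step, was at 79, 111 and 100.2 CPM in the WT and 86.8, 122 and 134 CPM in the KO libraries (log2 fold change 0.24, SE 0.28, 95% interval -0.41 to 0.90, edgeR adjusted p = 1.00), with 0.14, 0.14 and 0.42. The KO and WT ranges overlapped for both. G6pdx lies across from Ikbkg, whose counts were 58.6% of its own.

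The regulators differed between the genotypes by less than the spread of their replicates. Nfe2l2, which encodes NRF2, was at 222, 244 and 319 CPM in the WT and 232, 197 and 323 CPM in the KO libraries, and Keap1, its inhibitor, at 78.2, 90.5 and 116 CPM in the WT and 76.1, 77.7 and 107 CPM in the KO libraries. Nfe2l1, a relative that controls proteasome genes, varied most between replicates, at 42, 74.2 and 138 CPM in the WT and 33.9, 94.7 and 109.5 CPM in the KO libraries, with both replicate 1 libraries lowest. Nqo1 (ENSMUSG00000003849, chromosome 8, 107388225 to 107403206), a quinone reductase and the standard readout of NRF2, was at 113, 91.3 and 63.1 CPM in WT replicates 1 to 3 and 99.4, 41.5 and 48.9 CPM in KO replicates 1 to 3. The KO library was lower in 3 of 3 pairs, by -0.18, -1.13 and -0.37 log2 units, most of all in pair 2, and the groups overlapped (log2 fold change -0.49, SE 0.40, 95% interval -1.43 to 0.44, edgeR adjusted p = 1.00). Among the 9 genes with the promoter element the KO library was higher in 3 of 3 pairs for Txnrd1, G6pdx and Pgd, in 2 pairs for Nfe2l2, Srxn1, Gclm, Mgst1 and Sod1 and in 1 pair for Prdx1. With pairs 1 and 3 only, all 9 had a higher estimate in KO, none past the adjusted threshold, beside 27 of all 35.

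Of the glutathione transferases, which join glutathione to reactive compounds, the membrane-bound Mgst1 and Mgst2 had the largest fold changes of the 35, and these rested on 1 library. Mgst1 (ENSMUSG00000008540, chromosome 6, 138140316 to 138156755) was at 8.58, 3.45 and 1.28 CPM in WT replicates 1 to 3 and 4.83, 69.7 and 3.89 CPM in KO replicates 1 to 3. KO replicate 2 was 8.13 times the next highest library, and without it the log2 fold change went from 2.55 (SE 1.20, edgeR adjusted p = 1.00) to -0.032. Mgst2, at 4.24, 0.896 and 0.925 CPM in the WT and 3, 13.9 and 0.514 CPM in the KO libraries, went likewise from 1.51 (SE 1.12, edgeR adjusted p = 1.00) to -0.21. A highest library over 3 times the next was found in 4.54% of all genes tested. The markers of eosinophils, neutrophils and macrophages were also highest in KO replicate 2, at the values given above, and their part in these 2 differences was not tested. Mgst3 was at 73.7, 37.6 and 19.8 CPM in the WT and 76.4, 92.9 and 23.1 CPM in the KO libraries, with the KO library higher in 3 of 3 pairs.

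**Figure D3:**
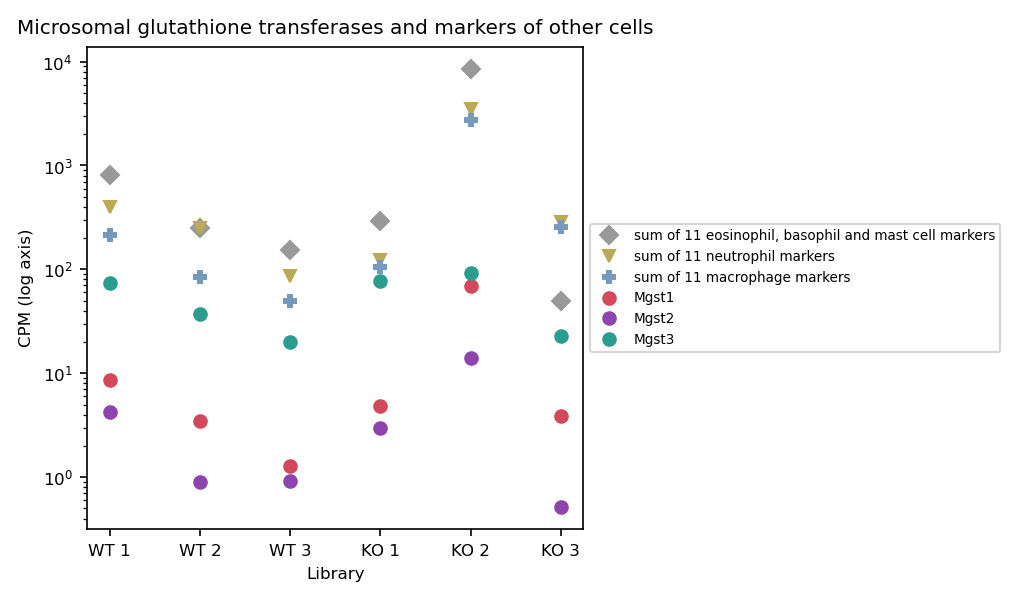
CPM (log axis) of Mgst1, Mgst2 and Mgst3 and the summed CPM of 3 lists of 11 markers of other marrow cells in each of the 6 libraries. KO replicate 2 holds the highest value of all 6 series, at 69.7 CPM for Mgst1 and 8499 CPM for the eosinophil, basophil and mast cell markers.

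The soluble transferases split. Gstm1 was at 40.4, 51.3 and 62.4 CPM in the WT and 44, 112 and 72.2 CPM in the KO libraries (log2 fold change 0.57, SE 0.38, 95% interval -0.32 to 1.45, edgeR adjusted p = 1.00), higher in the KO library in 3 of 3 pairs and highest in KO replicate 2. Gstp1 was at 296, 298 and 173 CPM in the WT and 307, 171 and 191 CPM in the KO libraries and Gsto1 at 348, 394 and 319 CPM in the WT and 389, 192 and 322 CPM in the KO libraries, both lowest in KO replicate 2. For Gstp1 and Gsto1 the KO library was the higher one in pairs 1 and 3.

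The pairs did not move alike. The KO library was higher in 21 of 35 genes in pair 1 (background 48.2%), in 12 in pair 2 (49.9%) and in 26 in pair 3 (48.9%), and the median differences were 0.061, -0.24 and 0.075 log2 units, against -0.014, -0.0024 and -0.0095 over all genes tested. In 12 genes KO was higher in pairs 1 and 3 and lower in pair 2, a pattern held by 16.5% of all genes tested. KO replicate 2 was the lowest of all 6 libraries for 11 genes (background 18.6%), Prdx6, Gsto1, Nqo1 and Nfe2l2 among them, and the highest for 9 (23%), which were Mgst1, Mgst2, Mgst3, Gstm1, Gsr, Gclc, G6pdx, Txnrd2 and Srxn1. That library also has the most transcripts of other marrow cells, and their part in this pattern was not tested. In 3 of 3 pairs KO was higher in 7 genes (background 11.6%), which were Txnrd1, Txnrd2, Gsr, G6pdx, Pgd, Mgst3 and Gstm1, and lower in 5 (13.3%), which were Gpx1, Txnip, Glrx, Keap1 and Nqo1.

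**Figure D4:**
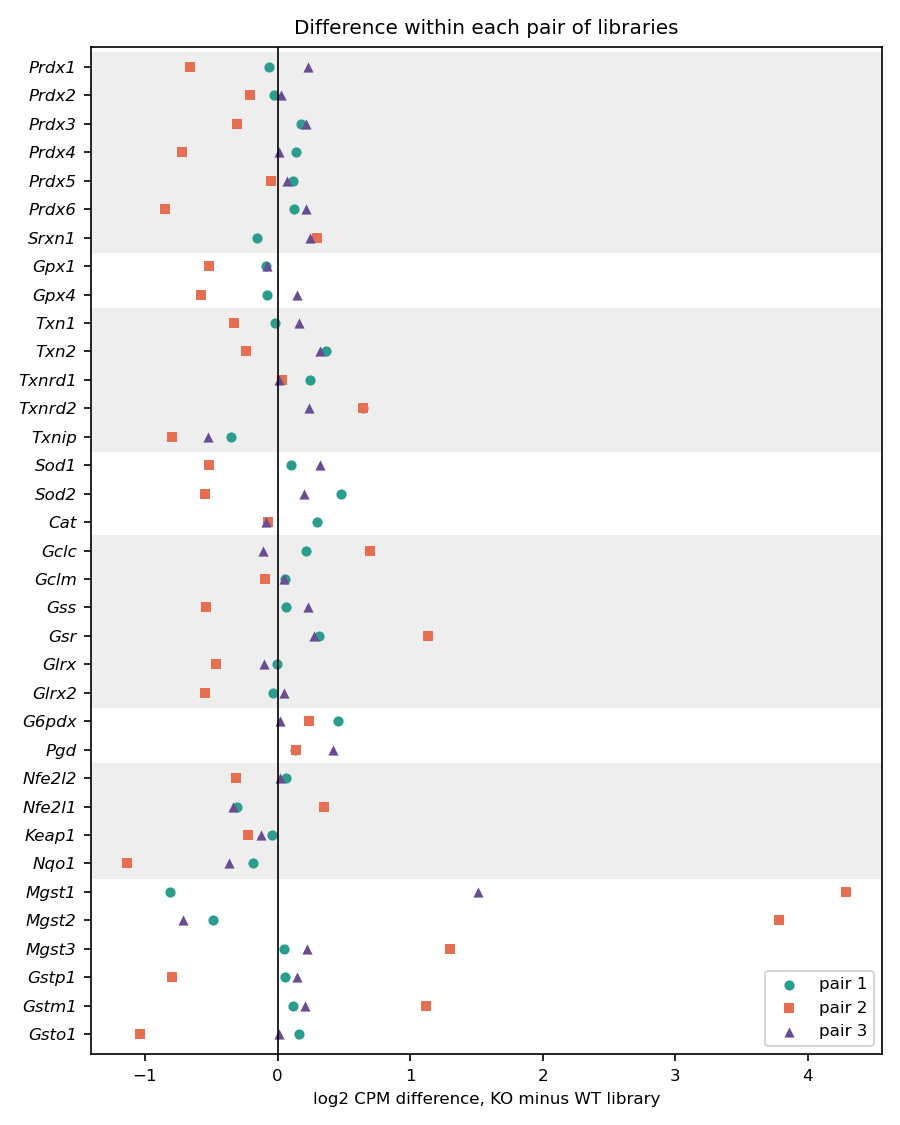
Difference of log2 CPM, KO minus WT, within pairs 1 (circles), 2 (squares) and 3 (triangles) for each of the 35 genes. Pair 2 lies left of 0 for 23 genes and far to the right for Mgst1 and Mgst2, while pairs 1 and 3 lie mostly to the right, at 21 and 26 genes.

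With replicate 2 of both genotypes left out and the replicate number as a block, 27 of the 35 genes had a higher estimate in KO (background 48.5%), with a median log2 fold change of 0.085 against -0.010 over all genes tested. None passed edgeR's adjusted threshold (background 0.862%, 117 of 13572 genes), and 8 had an unadjusted p under 0.05 (background 13.2%). These were Txn2 (log2 fold change 0.34), Txnrd2 (0.44), Sod2 (0.34), Gsr (0.29) and Pgd (0.28), all higher in KO, and Txnip (-0.44), Nfe2l1 (-0.33) and Nqo1 (-0.28), all lower. Leaving out KO replicate 2 alone, 25 of 35 had a higher estimate and the median was 0.080.

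Libraries numbered 1 and 3 lay further apart than the genotypes, here and over all genes tested. The mean difference between the libraries numbered 1 and 3 had a median size of 0.67 log2 units over the 35 genes, against 0.17 for the difference between genotypes, and it was the larger of the 2 for 30 genes (82.3% of all genes tested). Over all genes tested these medians were 0.74 and 0.18. The first sets means of 2 libraries against each other and the second means of 3, so they are not measured alike. Replicate 1 was the highest in both genotypes for 12 genes (background 28.7%), which were Gpx1, Gpx4, Prdx1 to Prdx6, Txn1, Gss, Glrx2 and Nqo1. It was the lowest in both for 10 (30.3%), which were Txnrd1, Txnrd2, Txnip, Cat, Gsr, Gstm1, G6pdx, Pgd, Nfe2l1 and Keap1. Gpx4 in replicate 1 was 3.86 times replicate 3 in WT and 3.31 times in KO, while Nfe2l1 was 0.303 and 0.310 times. This difference went with transcript length: Spearman's rho between the 2 was -0.75 across the 35 genes (Pearson's r -0.74) and -0.62 (r -0.58) across 13443 tested genes, all read in the same 4 libraries. The 12 genes highest in replicate 1 had a median principal transcript of 1516 nt, and the 10 lowest 2734 nt. Replicates 1 and 3 also differ in the sex of the mice, per the Xist and Ddx3y counts. The part of length and of sex in the difference was not tested.

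**Figure D5:**
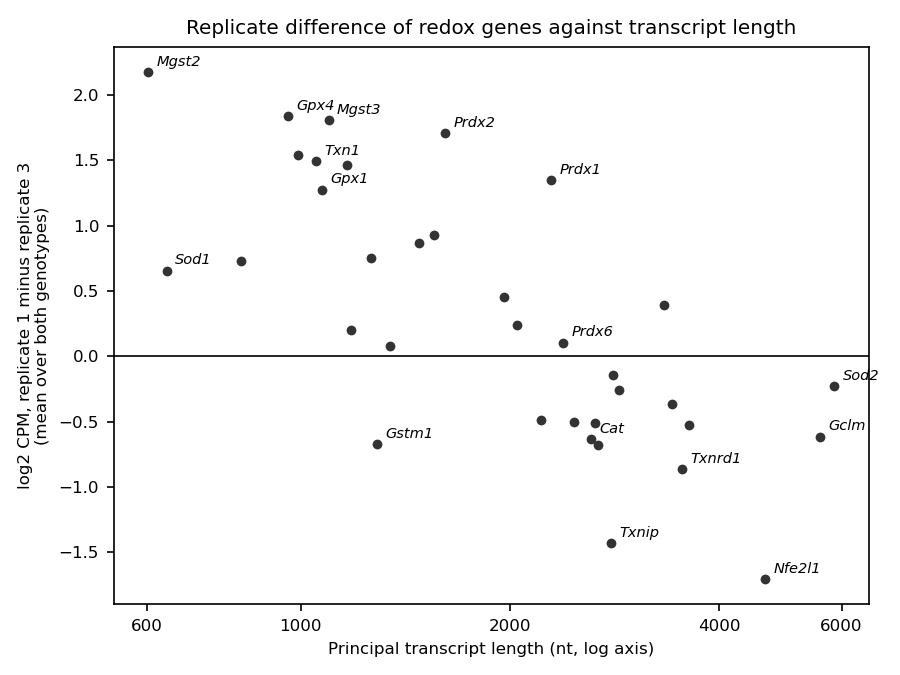
Length of the principal transcript (nt, log axis) of each of the 35 genes against the log2 CPM of replicate 1 minus replicate 3, averaged over both genotypes. Short transcripts such as Mgst2, Gpx4 and Txn1 lie above 0, and longer ones such as Txnip and Nfe2l1 below it. Exceptions include Gstm1 (1289 nt), at -0.67, and Prdx1 (2294 nt) and Glrx2 (3337 nt), at 1.35 and 0.39.

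Beyond the 35, 112 further genes of the redox network were listed by role, of which 97 could be tested. In edgeR's test 0 passed, with 4 at an unadjusted p under 0.05 (background 1.74%), and with the block 0, with 2 (3.54%). DESeq2 called 0, with 5 (2.57%), and with the block 1, Ncf4, with 6 (4.46%). Without the block DESeq2 gave no p for some genes, Cybb and Epx among them. Limma voom called 0, with 7 (5.46%). Of the 97, 44 had a higher and 53 a lower estimate in KO, with a median log2 fold change of -0.018, beside 49.3% higher over all genes tested. Further genes of the glutathione transferase families had a lower estimate in KO in 11 of 11 tested, with a median log2 fold change of -0.26, and none passed. Their pair medians were -0.0092, -0.54 and -0.23, and the KO library was higher for 5, 1 and 1 of the 11 in pairs 1 to 3. Close copies among them may share reads, as said above for Gstp1, so the 11 need not be independent. Gstm7 was at 6.13, 5.72 and 9.75 CPM in the WT and 3.55, 3.54 and 5.88 CPM in the KO libraries. Genes of selenoprotein synthesis, which Gpx1, Gpx4, Txnrd1 and Txnrd2 need as selenoproteins, and further selenoproteins had a higher estimate in 4 and a lower one in 9 of 13; with pairs 1 and 3 only, 10 of 13 were higher. Further genes listed for NADPH supply were higher in 8 and lower in 4 of 12. They include enzymes that make no NADPH themselves, such as Taldo1, Tkt and the NAD kinases Nadk and Nadk2. Among these, Mthfd2, a mitochondrial folate enzyme, was at 22.5, 16.1 and 17.3 CPM in the WT and 30.5, 41.2 and 31.8 CPM in the KO libraries (log2 fold change 0.89, edgeR adjusted p = 1.00).

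In 5 of the 97 the genotypes did not overlap (background 4.03%), and these 5 were picked by that separation. KO was above WT for Mthfd2, for Ncf4, a subunit of the phagocyte NADPH oxidase, and for Slc25a39, which brings glutathione into mitochondria. Slc25a39 was at 207, 209.8 and 237 CPM in the WT and 265, 253 and 278 CPM in the KO libraries (log2 fold change 0.28, edgeR adjusted p = 1.00). KO was below WT for Gstk1, at 11.9, 13.6 and 9.75 CPM in the WT and 9.54, 7.4 and 7.86 CPM in the KO libraries, and for Nfe2. The latter encodes the erythroid and megakaryocytic relative of NRF2, and was at 800.1, 802 and 793 CPM in the WT and 790.3, 493 and 665 CPM in the KO libraries; KO replicate 1 differed little from WT. Ncf4 stood at 10.1, 4.27 and 2.56 CPM in the WT and 25.7, 84.6 and 11.3 CPM in the KO libraries. With pairs 1 and 3 only, 2 of the 97 passed, Ncf4 as higher (log2 fold change 1.69, edgeR adjusted p = 0.0092; background 0.258%) and the eosinophil peroxidase gene Epx as lower (-3.55, edgeR adjusted p = 0.00090; background 0.604%). Epx is a marker of eosinophils and was at 56.5, 0.413 and 9.18 CPM in the WT and 7.89, 896 and 0 CPM in the KO libraries.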

How the data were processed

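RNA was sequenced from 6 MEP libraries (3 WT, 3 KO), by SMART-Seq v4 amplification and Nextera XT tagmentation, per the labels' protocols. The deposited values are raw counts per Ensembl gene. FastQC 0.11.5, STAR 2.5.3a, edgeR and the builds GRCm38.p3 and GRCh38.p3 are named in the submitters' processing notes. Counter, strand setting and annotation release were not given in the sources used here. Gene coordinates are those of the deposited table, of which 95.2% match GENCODE M21 (GRCm38) among 52319 shared genes (32 of the 35).

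Genes were filtered with filterByExpr (minimum count 10, minimum total 15), which kept 13453 genes, scaled by TMM and tested with edgeR 4.0.16's quasi-likelihood test in R 4.3.3, with Benjamini-Hochberg adjustment over all of them (threshold 0.05, two-sided). SE is the log2 fold change over the square root of F, and log2 CPM add a prior count of 2. Length is that of the principal GENCODE M21 transcript. DESeq2 1.42.0 and limma 3.58.1 were alternatives. The fits were tested on simulated data.

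Same-numbered libraries deviated together from their group means (correlation across genes 0.53, 0.16 and 0.63 for numbers 1, 2 and 3), so they are called pairs, a pairing seen in the data only. Labels give pools of 3 mice but no shared origin, so p-values measure the spread between these pools.

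The 35 genes, the lists and the tests were chosen with earlier results of these data known. Genes were named where past a threshold, not overlapping, of smallest p in a role or pathway list, or with a highest library over 3 times the next. All 35 are described, and the values of others were added after they were seen. Some values of an overlapping gene are not reported here.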

Additional observations from a re-analysis of the deposited data

How the results depend on the processing

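The count of 0 called genes among the 35 held in every alternative: the replicate block, pairs 1 and 3 only, DESeq2 with and without the replicate block, limma voom with quality weights, 3 other scalings, 2 other filters and each library left out. In DESeq2 without the block, Mgst1 had no p and could not be called. The count with a higher estimate in KO was 17 in the 6 libraries and 17 with the replicate block, 27 in pairs 1 and 3 with the replicate block, and 15 to 25 with 1 library left out, highest without KO replicate 2. The median log2 fold change, -0.049 in the 6 libraries and -0.033 with the replicate block, ran from -0.067 to 0.11 with 1 library left out, and was 0.11 without WT replicate 1. Among the other redox genes 2 were called in pairs 1 and 3 with the replicate block and 1, Ncf4, by DESeq2 with the replicate block.

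Some single fold changes turned direction. Leaving out 1 library gave log2 fold changes of -0.69 to 0.13 for Gpx1, -0.092 to 0.20 for Sod2, -0.16 to 0.35 for Txnrd1, -0.032 to 3.45 for Mgst1, -0.21 to 2.66 for Mgst2, -0.30 to 2.88 for Ncf1, -0.29 to 2.93 for Hmox1 and -2.47 to 5.96 for Epx; those of Mgst1, Mgst2, Ncf1, Hmox1 and Epx turned without KO replicate 2 alone. Sod2 was -0.13 with limma voom. Mgst2 was -0.64 in pairs 1 and 3 with the replicate block. Epx was -1.26 with the replicate block, -3.55 in pairs 1 and 3 and -2.79 in DESeq2 with the replicate block. Ncf4 passed at 1.69 in pairs 1 and 3 and at 2.56 in DESeq2 with the replicate block. The cause of these differences between fits was not tested. The scalings moved the median of all genes by at most 0.025 log2 units. With 3 pools a genotype, the median SE of the 35 was 0.34 without and 0.19 with the replicate block.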

Other observations

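Genes of oxidant production were mostly highest in KO replicate 2, 6 of the 8 tested (background 23%). The list of 10 they come from also holds Sod3 and the copper chaperone Ccs. All 8 tested had a higher estimate in KO (background 49.3%), with a median log2 fold change of 2.44. In edgeR's test 0 passed (background 0%), with 3 at an unadjusted p under 0.05 (background 1.74%). The pair medians of the 8 were -0.11, 3.62 and 0.44. Cybb, the catalytic subunit of the phagocyte oxidase, was at 4.8, 3.31 and 1.28 CPM in WT replicates 1 to 3 and 3.67, 150.4 and 5.66 CPM in KO replicates 1 to 3. Ncf1, another subunit, was at 7.84, 7.99 and 1.78 CPM in the WT and 6.97, 79.9 and 2.57 CPM in the KO libraries, and Mpo, the peroxidase of neutrophil granules, at 153, 84.1 and 27.9 CPM in the WT and 79.8, 1284 and 169.6 CPM in the KO libraries. Mpo and Epx are also among the marker genes of neutrophils and eosinophils, so these values and the marker sums share genes. Hmox1, which breaks down heme and is abundant in macrophages, was at 34.9, 17.4 and 3.56 CPM in the WT and 7.4, 211 and 23.1 CPM in the KO libraries, so that the KO library was lower in pair 1 and higher in pairs 2 and 3.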
